A study of Notophthalmus viridescens with 12 samples.

Results

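The dorsal iris 4 days post-lentectomy (dpl) was compared with the dorsal iris of intact eyes in the eastern newt, Notophthalmus viridescens. Members were chosen by level alone: assembled transcripts that reached a value of 1 in 3 or more of these groups' 6 libraries, which gave 850913 of the 856451 transcripts in the table. Both groups came from adult wild-caught animals, for which no transgene and no drug given into the eye is described. The paper did lentectomy under anaesthesia and does not say whether intact animals had it. The intact group had no surgery, and the other had its lens removed 4 days before collection. Each group held 3 libraries, each of them a pool of the dorsal irises of both eyes of 3 or 4 animals. A library is thus an average over animals and over all cells of the dorsal iris tissue taken. A further 6 libraries, 3 at 6 h post-lentectomy (hpl) and 3 at 1 dpl, entered the estimate of spread and are used below for levels in between.

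The dorsal iris is known as the source of the new lens in newts. Its pigment epithelial cells re-enter the cell cycle after lens removal, lose their pigment and turn into lens cells, whereas those of the ventral iris normally do not form a lens. An iris also holds stroma, vessels and muscle, and blood cells enter it after injury. The table names transcripts only by an ID, none of which it pairs with a gene, so cyclins, pigment genes, macrophage genes and other markers could not be picked out and the labelled tissue could not be checked against its markers. In such bulk tissue, fewer cells of a type and less RNA per cell cannot be told apart.

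Values are a normalised abundance signal per transcript in which the median lay between 8.20 and 8.54 in all 6 libraries. Sums ran from 31707275 to 36168005 in intact libraries and from 36414784 to 40770545 at 4 dpl, without overlap (exact permutation test, two-sided, p = 0.1, the smallest that 3 against 3 libraries allow). Read depth cannot be recovered from these values, so no counting intervals are given. Pearson's r of log2 values across these transcripts was 0.75 to 0.81 between intact libraries, 0.78 to 0.80 between 4 dpl libraries and 0.59 to 0.69 between the groups. Intact replicate 1 and 4 dpl replicate 3 were the least alike pair.

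On the values as deposited, more transcripts were higher than lower at 4 dpl. By limma with a Benjamini-Hochberg adjusted p under 0.05, transcripts past which are referred to as called, 33309 transcripts (3.91% of those tested) were higher at 4 dpl and 20321 (2.39%) were lower, in all 6.30%. Of the higher calls 14201 had IDs that begin with 7 or 8, and of the lower calls 12997 had IDs that begin with 1 or 2. These ID classes, which differ in level between the groups, are described below. The median log2 difference was 2.24 among higher calls and -2.44 among lower calls, with a median standard error of 0.53. An unadjusted p under 0.05 was found in 20.9%. The groups' values were fully apart in 98.8% of the higher and 98.2% of the lower calls. Among all transcripts tested this was so for 13.3% in the higher and 11.7% in the lower direction (25.1% in all), and limma called 24.8% of these. The split of 62.1% higher rests on the scaling as deposited. It was 50.1% with libraries scaled to equal totals and 39.0% with scaling on abundant transcripts, which moved the median difference of all transcripts from -0.03 to -0.31. Without intact replicate 2 there were 32205 calls and without 4 dpl replicate 3 there were 30412, in place of 53630.

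The called transcripts held a larger part of the RNA signal at 4 dpl. The higher calls made up 5.64%, 6.32% and 6.45% of the summed value of the tested transcripts in the intact libraries and 19.6%, 20.1% and 21.4% at 4 dpl. All shares of signal given for calls are of that sum. The lower calls made up 7.20%, 7.02% and 6.36% in intact libraries and 1.44%, 1.09% and 0.92% at 4 dpl. Shares add up to 100%, and transcripts not called went from 87.2%, 86.7% and 87.2% in intact libraries to 79.0%, 78.8% and 77.7% at 4 dpl. These shares do not depend on how libraries are scaled against each other, although the choice of calls does, and as the same libraries chose the calls they describe the size of the change and carry no test. The 100 higher calls with the largest 4 dpl mean held between 1.05% and 1.43% in intact and between 3.96% and 4.64% at 4 dpl. The 100 lower calls with the largest intact mean held between 2.38% and 3.26% in intact and between 0.38% and 0.79% at 4 dpl. Most of the gain of the higher calls lay outside their 100 most abundant transcripts.

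The libraries taken between these time points lay between them. The median value of the higher calls was 4.87, 5.53 and 5.81 in intact libraries, 12.8 to 14.1 at 6 hpl, 17.2 to 20.1 at 1 dpl and 31.9, 33.0 and 34.5 at 4 dpl. For the lower calls it was 26.3, 18.1 and 16.7 in intact libraries, 7.48 to 8.58 at 6 hpl, 4.90 to 5.49 at 1 dpl and 2.42, 2.50 and 1.84 at 4 dpl. No library's median over all calls fell into the range of another group in either set. This was not so for other measures, as the share of signal in lower calls was 2.97% to 5.14% at 6 hpl and 2.40% to 3.20% at 1 dpl. Transcripts selected for a difference between the end points tend to lie in between at other times, so the order itself was favoured by the selection. Calls among IDs that begin with 3 to 6, a class explained below, gave the same order. Medians of its higher calls were 5.69 to 6.95 in intact, 18.8 to 20.5 at 6 hpl, 23.3 to 27.4 at 1 dpl and 34.4 to 37.4 at 4 dpl. These calls were selected in the same way, so their order was favoured too and is no check.

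**Figure D1:**
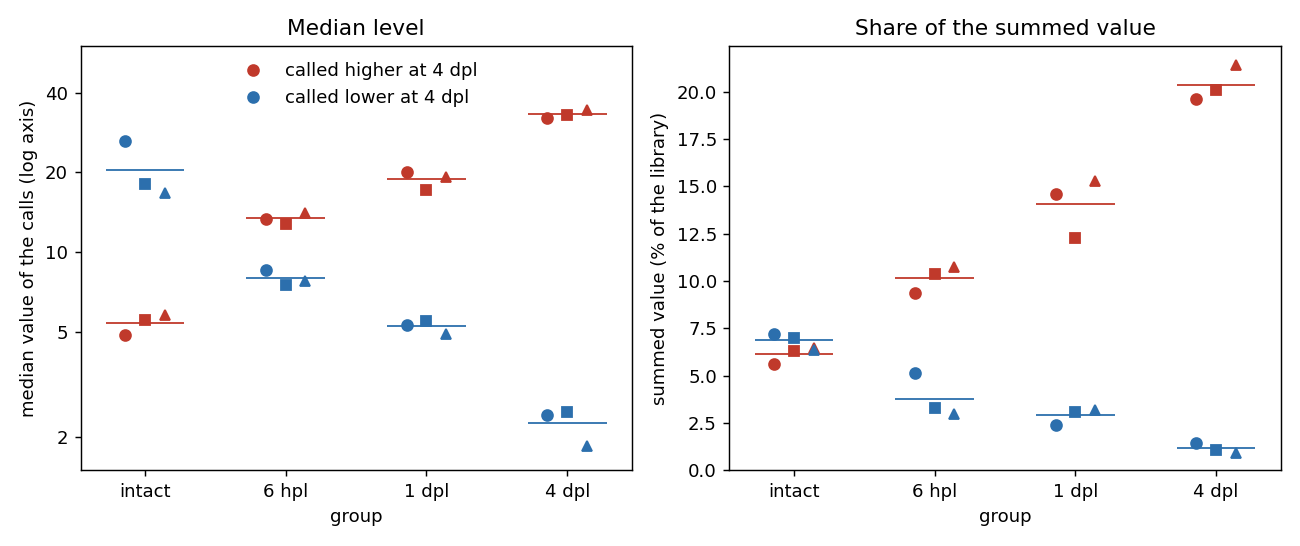
Median value on a log axis (left) and share of the summed value of the tested transcripts in percent (right) of the 33309 transcripts called higher and the 20321 called lower at 4 dpl against intact, in each of the 12 libraries. Circles, squares and triangles are replicates 1, 2 and 3, and bars are group means. The higher calls go from 5.64-6.45% of the signal in intact libraries to 19.6-21.4% at 4 dpl.

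Most higher calls were at their highest at 4 dpl. Of the 33309, 26754 (80.3%) had their largest group mean at 4 dpl, 3394 at 1 dpl and 3161 (9.49%) at 6 hpl. Among abundant higher calls, those whose mean of the intact and 4 dpl group means was 100 or more, 88.9% of 6589 peaked at 4 dpl. Of the 20321 lower calls, 14141 (69.6%) had their smallest mean at 4 dpl, 5221 (25.7%) at 1 dpl and 959 (4.72%) at 6 hpl. Over all transcripts tested, the largest mean was at 4 dpl in 26.6%. The smallest was at 4 dpl in 27.0%, at 1 dpl in 21.7% and at 6 hpl in 24.7%. All transcripts had their smallest mean in intact iris in 26.6%, which lower calls could not have, so these shares are on unlike bases. Means of neighbouring times may also lie within the spread of their replicates, which was not tested. Calls by their selection could have neither a highest mean in intact iris if higher nor a lowest one if lower, so these shares are descriptions that the selection favoured.

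The most abundant transcripts were largely shared between the groups. Of the 10 transcripts with the largest mean in intact iris, 7 were among the 10 largest at 4 dpl, and 0 of either 10 were called. The lists of 100 shared 67 and the lists of 1000 shared 623 transcripts. Among the 1000 largest in intact iris 96 were called lower and 62 higher, and among the 1000 largest at 4 dpl 330 were called higher and 13 lower. Each list was ranked by the mean of a single group, which favours calls that are higher in that group. Of all transcripts tested 6.30% were called. Where the mean of both group means was 1000 or more, 27.7% were called on the scaling as deposited, 86.2% of them higher. No difference in how concentrated the signal was could be shown. The 10 highest transcripts of a library held 8.91%, 6.99% and 10.8% of the signal in intact and 6.38%, 6.30% and 8.27% at 4 dpl, and the groups overlapped (exact permutation test, two-sided, p = 0.2). For the 100 highest the shares were 18.8% to 25.3% and 17.4% to 19.4% (p = 0.3 by the same exact test). The number of transcripts that held 50% of the signal, which is smaller where the signal is more concentrated, was 6643, 6132 and 3497 in intact and 5177, 4861 and 4171 at 4 dpl (p = 0.5 by the same exact test), so the mean of this measure went the other way.

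Named transcripts are the 2 higher calls with the largest 4 dpl mean and the 2 lower calls with the largest intact mean, out of 32917 and 19952 calls whose values did not overlap. Their gene identities are not known here.

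Transcript 7_55648920 was at 27784, 28571 and 33591 in intact libraries and at 91002, 109182 and 103010 at 4 dpl. Every 4 dpl value was above every other value of the 12 libraries, and the transcript rose from rank 65 to rank 19 among group means. At 6 hpl it averaged 40544 ± 3810 (SD, n = 3) and at 1 dpl 55370 ± 17585. The log2 difference of 1.75 (SE 0.40, limma adjusted p 0.01111) corresponds to a 3.37-fold higher level on the scaling as deposited.

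Transcript 5_37223512 was at 30365, 31586 and 32398 in intact libraries and at 97233, 83255 and 108220 at 4 dpl. The intact values lay within a narrow range, and all 4 dpl values were above the others. At 1 dpl the replicates were spread widely, at 59915, 32696 and 79480. Its log2 difference was 1.61 (SE 0.42, limma adjusted p 0.0269).

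Transcript 8_63591830 was at 75900, 67730 and 63715 in intact libraries and at 35869, 14931 and 13067 at 4 dpl. The groups did not overlap, but 4 dpl replicate 1 was well above the others of its group. At 6 hpl the values were already down to between 17022 and 25824, whereas at 1 dpl they were 25475, 35966 and 84668, the last of these above every intact value. Its log2 difference was -1.85 (SE 0.48, limma adjusted p 0.02446).

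Transcript 3_17849369 was at 50005, 55153 and 79052 in intact libraries and at 18227, 18674 and 14901 at 4 dpl. It followed another course, as it averaged 76705 ± 6892 (SD, n = 3) at 6 hpl and 43673 ± 9841 at 1 dpl before it reached 17267 ± 2062 at 4 dpl. The log2 difference was -1.81 (SE 0.39, limma adjusted p 0.008068). All 4 transcripts kept their direction without any 1 library, but lost their call in limma without intact replicate 1, with adjusted p of 0.1405 for 7_55648920, 0.1927 for 5_37223512, 0.1443 for 8_63591830 and 0.07049 for 3_17849369. Leaving out other libraries also ended calls, and 5_37223512 was past the threshold only with all 6. Within 5 numbers of its ID, 7_55648920 had 1 other tested transcript, which was called higher, 5_37223512 had 2, of which 1 was called higher, 8_63591830 had 1, which was not called, and 3_17849369 had 0.

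**Figure D2:**
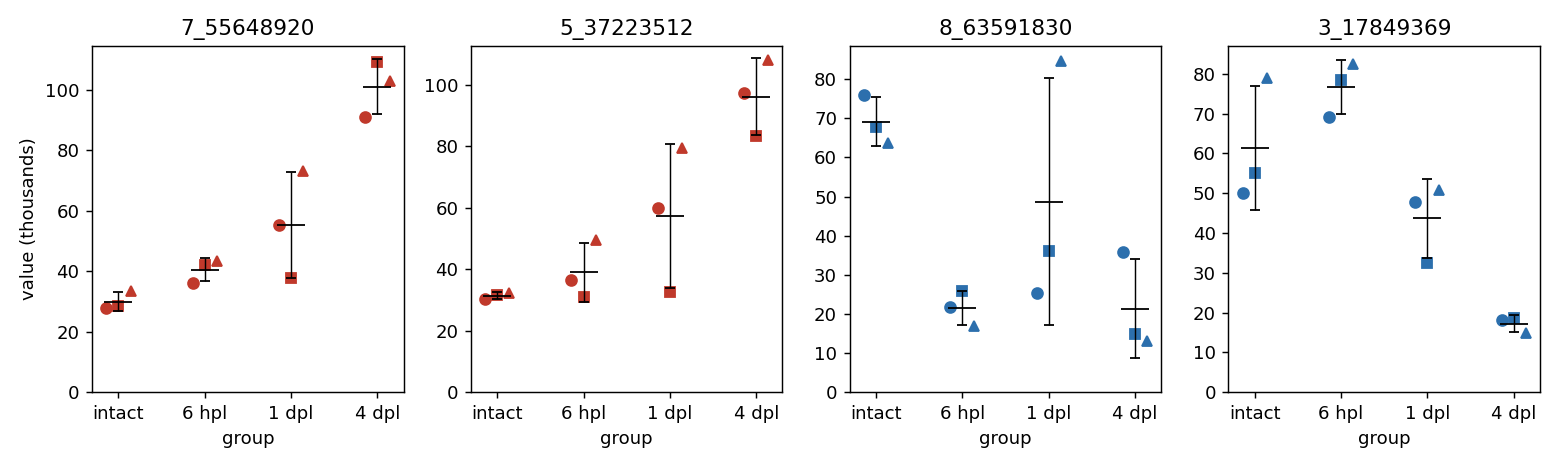
Values (axis in units of 1000) of the 4 named transcripts in each library by group, with replicates 1, 2 and 3 as circles, squares and triangles and the mean ± SD in black (n = 3). The transcripts in red rose, 7_55648920 from a mean of 29982 to 101064, and those in blue fell, with 1 dpl replicate 3 at 84668 for 8_63591830.

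How often a transcript was called, and in which direction, depended on its level. In classes of the mean of both group means, limma called 2.27% of 139845 transcripts under 5, 4.81% of 554467 from 5 to 20, 12.8% of 121471 from 20 to 100, 22.7% of 31399 from 100 to 1000 and 27.7% of 3731 at 1000 or more. The median standard error fell over these classes from 0.64 to 0.35, so smaller differences could be called at high levels. The share of calls that were higher was 59.5%, 55.3%, 64.6%, 80.0% and 86.2% in the same order. Without reference to any test, the values of 50.4% of the most abundant class lay entirely above and of 10.6% entirely below those of intact iris, against 9.18% and 8.80% of the least abundant class. The median difference of all transcripts at 1000 or more was 0.58, and of those under 5 it was 0.00. These shares and medians by class rest on the scaling as deposited and were not recomputed with another. In scaling on abundant transcripts, libraries were divided by 0.86, 0.91 and 0.93 in intact and by 1.10, 1.07 and 1.21 at 4 dpl. Among abundant transcripts, 6589 of 8156 calls (80.8%) were higher. Rescaled on these transcripts themselves, this share was 61.6%, still on the same side, and without 4 dpl replicate 3 there were 5001 abundant calls in place of 8156. Without a variance trend in the test there were 4946.

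The balance between directions also depended on the size of the difference. Of calls that differed by 2 log2 units or more, 21290 were higher and 14788 lower, but of those that differed by 6 or more, 109 were higher and 302 lower (26.5% higher). Lower calls were already more numerous from 4 to 5 units, with 1250 higher and 1551 lower, and from 5 to 6 units, with 269 and 600. Between 6 and 8 units there were 88 higher and 281 lower, and beyond 8 units 21 of each. With each library left out in turn, the share of 26.5% ranged from 15.4% without intact replicate 3 to 35.0% without intact replicate 1. With a pseudocount of 5 instead of 1 only 80 calls were that large, of which 51.3% were higher, so the direction of this balance changed with the pseudocount. Of the 20321 lower calls, 4211 (20.7%) were listed at 0 in all 3 libraries at 4 dpl, with a median intact mean of 22.4. Only 913 of the 33309 higher calls (2.74%) were listed at 0 in all 3 intact libraries, with a median 4 dpl mean of 9.06. Of all 856451 transcripts, 9297 were at 0 in all 4 dpl libraries and 2274 in all intact libraries. Among those tested the numbers were 6245 (0.73%) and 1169 (0.14%). A transcript at 0 throughout a group passed the filter only through the other group. The direction of these calls was therefore fixed in advance, and their counts are descriptions. A value listed at 0 can be a failed estimate, and no fold change is given for these.

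**Figure D3:**
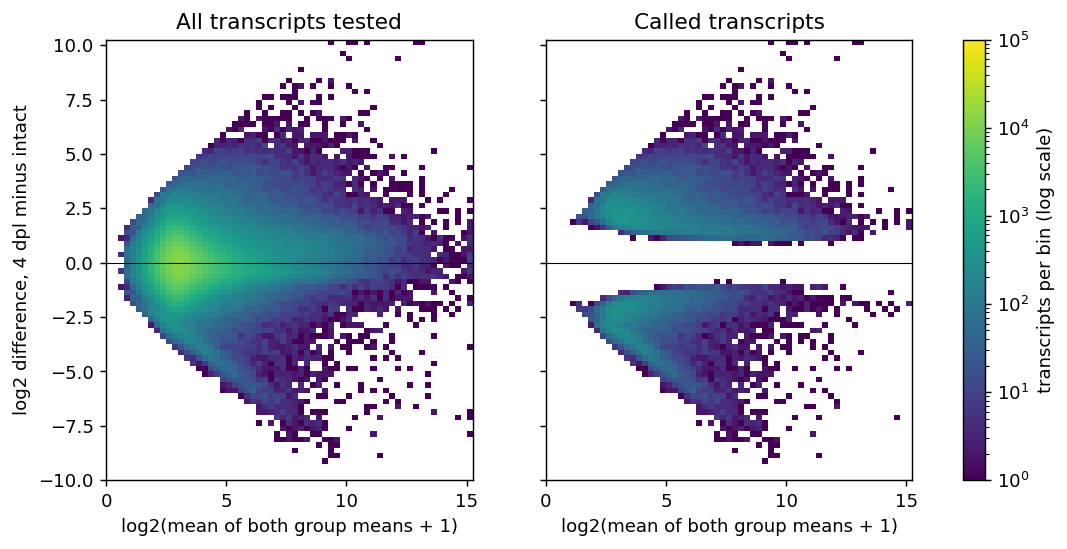
Log2 difference at 4 dpl minus intact (vertical) against the log2 mean level of both groups (horizontal) for the 850913 transcripts tested (left) and the called ones (right). Colour gives the number of transcripts per bin on a log scale, and values beyond 10 or beyond a level of 15 are drawn in the last bin. Calls at high levels lie mostly above 0, and calls at a difference below -6 (302) outnumber those above 6 (109).

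Direction also differed by the first digit of the ID. Reads of each condition had been assembled separately before the assemblies were merged, and IDs that begin with 1 or 2 had higher medians in intact libraries, those with 7 or 8 at 4 dpl. For digit 1 the median value was 12.03 to 12.34 in intact libraries and 7.60 to 7.85 at 4 dpl, and for digit 7 it was 6.85 to 7.11 and 11.4 to 12.2. What the digits stand for is not given in the sources used here. Of 15681 calls with digits 1 or 2, 17.1% were higher, and of 15139 with digits 7 or 8, 93.8%. Digit 9 held 6265 tested transcripts, with a median log2 difference of 0.11. Of these 11.7% were called, and 91.2% of its 730 calls were higher. Digits 3 to 6 had their highest medians at 6 hpl or 1 dpl and so favoured neither end of this comparison as strongly, with a median log2 difference of 0.02. The class was not uniform, since digits 3 and 4 had median differences of -0.02 and -0.01 with 62.4% and 65.2% of calls higher, and digits 5 and 6 had 0.07 and 0.06 with 80.5% each. They held 451059 tested transcripts and 22080 calls (4.90%), of which 15758 were higher and 6322 lower (71.4% higher). That share was 59.4% with scaling to equal totals, 67.6% with scaling on this class itself and 46.8% with scaling on abundant transcripts. The class had 13307 calls without intact replicate 2 and 12761 without 4 dpl replicate 3.

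The contrast between digits was widest among transcripts of low level. Of calls with digits 1 or 2, 3.52% were higher at a mean under 5, 7.54% from 5 to 20, 22.0% from 20 to 100, 57.5% from 100 to 1000 and 78.0% at 1000 or more. The corresponding shares for digits 3 to 6 were 66.7%, 66.0%, 73.5%, 82.3% and 85.7%, and for digits 7 or 8 they were 95.8%, 95.0%, 92.3%, 91.7% and 92.9%. The classes thus lay far apart at the bottom and close together at the top. For digits 1 or 2 at 1000 or more the share was 55.6% with scaling on abundant transcripts and 66.5% without intact replicate 1. Lower calls listed at 0 in all 4 dpl libraries were mostly of digits 1 or 2, 3477 of 4211 (82.6%), whereas of the 913 higher calls at 0 in all intact libraries 472 (51.7%) had digits 7 or 8. These digits were already common, with 12997 of all 20321 lower calls in digits 1 or 2 and 14201 of all 33309 higher calls in digits 7 or 8.

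**Figure D4:**
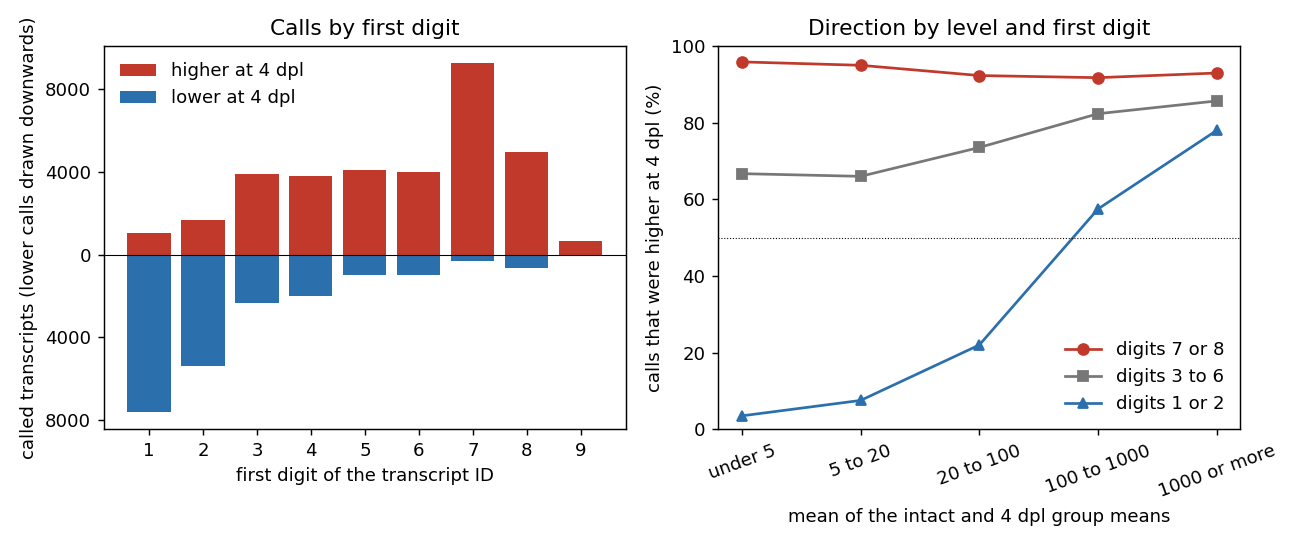
Number of transcripts called higher (upwards) and lower (downwards) by the first digit of the ID (left), and percent of calls that were higher at 4 dpl by class of mean level for 3 groups of digits (right). For digits 1 or 2 the share goes from 3.52% in the least abundant class to 78.0% in the most abundant one.

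Transcripts with neighbouring ID numbers changed together. Numbers run on from one digit to the next, from 15 to 70033918, with many left out. In 33991 pairs of tested IDs that were 1 number apart and had the same first digit, the log2 differences correlated with r of 0.55 across pairs. At 2 numbers apart r was 0.52, at 3 to 5 it was 0.43, at 6 to 10 it was 0.29 and at 11 to 20 it was 0.18, and beyond that it ran level between 0.15 and 0.17. Within single digits from 1 to 8, r was between 0.42 and 0.55 at 1 number apart and between -0.01 and 0.02 at 101 to 1000 apart. For digit 9 it was 0.38 and 0.14, the latter over 162 pairs. All pairs share the same 6 libraries, and these values describe pairs of transcripts, not replicates. Levels were alike as well, with r of 0.37 at 1 number apart and 0.04 at 101 to 1000 apart.

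Calls were more frequent beside another call, although most calls were the only one in their run of IDs. Where the first ID of a pair 1 number apart was called, the next was called in 38.5% of cases, against 8.46% of all such IDs and 6.30% of all transcripts. At 101 to 1000 apart these shares were 5.79% and 4.99%. Of 1110 pairs 1 number apart with both members called, 33 were called in opposite directions (97.0% the same), and at 101 to 1000 apart 95 of 490 were (80.6% the same). When IDs of the same digit at most 2 numbers apart were joined into runs, the calls fell into 51515 of 786988 runs. Of these 51515 runs, 49702 held a single call, and 54731 of all runs held 2 or more IDs. A run with 2 or more calls occurred 1813 times, and in 1750 of these all calls had the same direction, which the shared first digit already favoured. Runs of lower calls were longer, since all 8 runs with 6 or more calls held lower calls alone. When values were summed within runs before the test, 51888 were called, 62.9% of them higher. Runs of 2 or more IDs held 18.0% of the calls and 13.9% of the transcripts.

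The run with the most calls held 20 IDs of digit 2, of which 13 were called lower and 0 higher. Its summed value was 26234, 51271 and 66041 in intact libraries and 22276, 9071 and 8403 at 4 dpl, so the groups were close at intact replicate 1 and 4 dpl replicate 1. At 6 hpl it was between 9635 and 13811, and at 1 dpl 14529, 18155 and 52549. The run with the most higher calls held 5 IDs of digit 4, all of them called. Its summed value was 110, 91.3 and 82.3 in intact libraries and 1594, 1317 and 1419 at 4 dpl, and at 1 dpl replicate 3 alone, at 983, had come near this level. Both runs were picked for their number of calls and are given as descriptions.

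**Figure D5:**
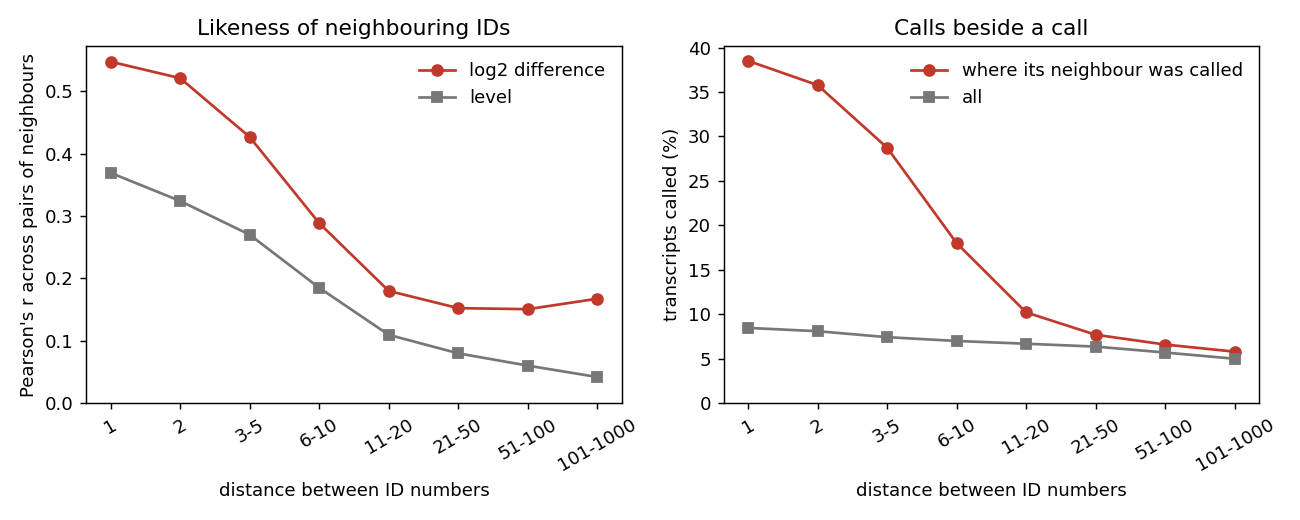
Pearson's r of log2 differences and of levels between neighbouring IDs of the same first digit by the distance between their numbers (left), and percent of transcripts called where the neighbour before them was called and over all pairs (right). The r of the differences goes from 0.55 to 0.15-0.17 and levels off beyond a distance of 20, while the r of levels and the share called keep falling.

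Single libraries contributed unequally to the calls. Among higher calls, the largest 4 dpl value came from replicate 3 in 44.8%, from replicate 2 in 30.9% and from replicate 1 in 24.3%, against 34.4%, 33.0% and 32.6% of all transcripts tested. Among the 14202 lower calls not tied at 4 dpl, replicate 3 held the smallest value in 43.3%, against 35.6% of all transcripts tested without such ties. In intact libraries replicate 1 was the lowest in 44.0% of higher calls without ties and the highest in 42.8% of lower calls, against 37.5% and 34.0% of all transcripts. The libraries at the ends of the range were thus those with the lowest correlation between the groups. The direction was the same without either of them, as 60.2% of calls were higher without intact replicate 1 and 62.5% without 4 dpl replicate 3.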

How the data were processed

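The authors trimmed reads with Trim Galore, depleted rRNA reads with Bowtie2 and Silva, assembled each condition with Trinity without a genome, merged the assemblies with DRAP, and estimated transcript abundance with Salmon. No source used here gives their versions. The deposited values are a normalised abundance signal averaged over Salmon's inferential replicates. They are described as TPM, which the design here had assumed, but the sums per library are far larger than TPM allows, and the same log-scale test was kept. All libraries have nearly the same median. Whether a processing step set this is not given in the sources used here. If so, a shift common to most transcripts would not be visible.

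Groups came from the labels' time points. Values were taken as log2(value + 1), which understates changes at low levels. Group means of all 12 libraries were fitted with limma 3.58.1 (R 4.3.3, with version 1.17.8 of data.table, variance trend), and 4 dpl was tested against intact, two-sided, with Benjamini-Hochberg adjustment over 850913 transcripts. Swish, the test of the authors, needs inferential replicates, which were not used here. The filter left out 5538 transcripts, 4025 of them at 1 or more in exactly 2 of the 6 libraries. The median of their highest values was 7.19, but the largest value left out was 218133. Fitting and calling were run on simulated data in which transcripts varied independently and libraries had no shift in scaling. That run checked the calculation only and does not bear on the number or direction of calls here. A gene may be split over several IDs, as isoforms or fragments. Labels do not say that replicate pools came from separate days, and p-values measure the spread between pools.

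Members, classes and lists were chosen with earlier results of these data known. The naming rule took, among calls without overlap, the 2 higher ones with the largest 4 dpl mean and the 2 lower ones with the largest intact mean. Alternatives were 2 pseudocounts, 3 filters, 3 scalings, 3 other fits and each library left out. The ID run summing was added after the data were seen.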

Additional observations from a re-analysis of the deposited data

How the results depend on the processing

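Of 18 alternatives, 16 left the number of called transcripts within 1.5 times the 53630 given, and with each library left out it ranged from 30412 to 42704. The share of higher calls was 50.1% with libraries scaled to the same total and 39.0% with scaling on abundant transcripts, and lay between 58.1% and 67.7% in the other 16. Called abundant transcripts were 4946 without a variance trend and ranged from 5001 to 7241 with a library left out. Among IDs beginning with 3 to 6 the share of higher calls changed sides, to 46.8%, with scaling on abundant transcripts. The share among calls of 6 log2 units or more was 51.3% with a pseudocount of 5. The cause was not tested for these. With the replicate number as a replicate block 52085 transcripts were called, 62.4% higher. Deviations of libraries with the same number correlated by 0.02 to 0.04 between intact and 4 dpl. Those of libraries with different numbers correlated by -0.035 to -0.0003. Whether the numbers pair the samples was not tested, and the main fit did not pair them. With a pseudocount of 0.1 all 4 named transcripts lost their call (limma adjusted p 0.2494 to 0.3738) at almost unchanged log2 differences, and over 17 alternatives 13, 10, 11 and 14 kept it for 7_55648920, 5_37223512, 8_63591830 and 3_17849369. The r of 0.55 between IDs 1 number apart ranged from 0.48 to 0.59.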

Other observations

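The 238 lower calls with an intact mean of 1000 or more had an unusual library at 1 dpl. In 61 of them (25.6%), 1 dpl replicate 3 was at or above the lowest intact value while both other 1 dpl replicates were below it. The same held for replicate 1 in 16 and for replicate 2 in 4 of the 238. Over all 20321 lower calls the 3 replicates did not stand apart in this way, with 1184, 1440 and 1128 transcripts. This count was made after the values of the named transcripts had been seen, and was not tested.

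Some abundant transcripts differed widely between libraries of the same group. Of 3034 transcripts with an intact mean of 1000 or more, 44 differed 100-fold or more between intact libraries after 1 was added to each value, and of 4402 with such a mean at 4 dpl, 14 did so between 4 dpl libraries. The gene identity of these transcripts is not known here.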
